A study of Caenorhabditis elegans with 2 samples.

Results

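The genes described here are 37 genes of the Caenorhabditis elegans pharynx, the muscular pump through which the worm feeds, and of the neurons that drive and modulate it. They were taken from a fixed list of symbols and found by name among the protein-coding genes of the Ensembl annotation, where all 37 matched, out of 19973 protein-coding genes on the nuclear chromosomes. They were grouped here as 12 genes for transmitters, peptides and receptors of pharyngeal neurons, 4 regulators of neuron identity, 10 genes of pharyngeal muscle and 11 genes of pharynx development. By chromosome, 4 lie on I, 5 on II, 7 on III, 1 on IV, 10 on V and 10 on X.

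The study mapped where CEH-2 sits on the genome. The samples were whole hermaphrodite late embryos of strain OP323, taken 5 hours after synchronization by egg bleaching, in 2 biological replicates of 1 group. Every sample carried a transgene for CEH-2 with a C-terminal GFP-FLAG tag, and sonicated chromatin was precipitated with an antibody against GFP. There was no second group, and neither an untagged sample nor the control was analysed here. Because whole embryos were used, occupancy in a few pharyngeal cells and weak occupancy in many cells cannot be told apart, and the files hold no expression values with which to check which cells carried the protein.

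CEH-2 is the worm member of the empty spiracles and EMX family of homeodomain proteins, which typically bind DNA with a TAAT core. In the worm it is known from pharyngeal neurons, among them the NSM neurons, which release serotonin, and the M3 neurons, which release glutamate and time the relaxation of pharyngeal muscle. Pharynx development itself is set by the forkhead factor PHA-4, with T-box and NK-2 homeodomain factors acting in subsets of pharyngeal cells. For these reasons genes of serotonin synthesis, glutamate signalling, muscle contraction and pharynx identity are natural places to look for occupancy.

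4 peak lists on the ce11 genome were compared. The reproducible set holds 1453 peaks that the authors kept after an irreproducible discovery rate (IDR) step. The relaxed lists, which the file headers describe as peaks together with background, hold 16046 peaks for the pooled replicates, 18431 for replicate 1 and 15188 for replicate 2. Peak strength is given as the deposited signal, a caller-specific value whose scale is not stated. It started at 28.97 in the pooled list, and the reproducible set was the pooled list at or above 86.3. Most relaxed peaks are therefore weak, with a median pooled signal of 38.9 and a median −log10 q-value of 0.216, against 2.31 to 2.88 in the reproducible set. The single-replicate lists are on lower scales, so their signals are given side by side and not subtracted. Replicate 1 started at 15.03 with a median of 20.2, and replicate 2 at 17.48 with a median of 22.9. Matches with signals close to these lowest values are weak support. The lists hold no read counts, and the depth is unknown.

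The sequences that carry the findings are shown first, each as the plus strand of ce11 from 50 bp before to 50 bp after a summit, the base at which a peak is highest. The first lines are the reproducible summits at these genes: one in an intron of cat-1, one in an intron of peb-1 and one far upstream of pha-4. In the cat-1 line the capitals mark the bases of a tRNA gene. In all other lines capitals mark TAAT or its reverse complement ATTA, and a line without capitals holds neither.
cat-1, chrX:5707956-5708056: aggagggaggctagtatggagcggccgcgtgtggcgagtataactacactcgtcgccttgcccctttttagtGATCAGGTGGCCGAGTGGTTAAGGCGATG
peb-1, chrX:2212304-2212404: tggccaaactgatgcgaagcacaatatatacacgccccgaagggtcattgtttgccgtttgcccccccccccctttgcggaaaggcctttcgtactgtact
pha-4, chrV:20749192-20749292: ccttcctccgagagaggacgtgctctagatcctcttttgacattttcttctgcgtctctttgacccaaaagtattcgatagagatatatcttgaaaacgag

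The next lines show the relaxed promoter summits that were found within 100 bp in both replicates, the promoter summits with matches in both lists among the 37 genes.
nlp-3, chrX:13178819-13178919: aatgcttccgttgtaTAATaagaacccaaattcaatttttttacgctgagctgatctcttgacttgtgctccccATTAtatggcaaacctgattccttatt
ceh-22, chrV:10674114-10674214: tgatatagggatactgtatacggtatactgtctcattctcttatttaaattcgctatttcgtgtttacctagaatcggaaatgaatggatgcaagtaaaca
ceh-22, chrV:10672728-10672828: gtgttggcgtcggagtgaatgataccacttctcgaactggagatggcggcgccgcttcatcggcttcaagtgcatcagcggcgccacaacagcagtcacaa
exp-2, chrV:6138742-6138842: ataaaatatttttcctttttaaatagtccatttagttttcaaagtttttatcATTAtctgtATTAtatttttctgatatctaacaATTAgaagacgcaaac
tbx-2, chrIII:5136381-5136481: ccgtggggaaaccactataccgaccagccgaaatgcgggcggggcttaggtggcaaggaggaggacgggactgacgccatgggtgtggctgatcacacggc
peb-1, chrX:2210454-2210554: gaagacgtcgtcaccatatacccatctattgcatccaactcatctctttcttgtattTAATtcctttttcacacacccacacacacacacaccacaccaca
peb-1, chrX:2216753-2216853: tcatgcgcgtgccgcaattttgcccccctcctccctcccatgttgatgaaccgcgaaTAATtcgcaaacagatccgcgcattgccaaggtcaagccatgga
These windows differ in base composition, with 20.8% G and C at exp-2 and 64.4% at tbx-2. The core is present once or more in the lines of nlp-3 and exp-2 and in both promoter lines of peb-1, and absent from both lines of ceh-22 and from that of tbx-2. The lines of the reproducible summits of cat-1, peb-1 and pha-4 do not hold it.

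None of the 37 genes had a reproducible summit in its promoter window, which runs from 1000 bp upstream to 200 bp downstream of any annotated start of a protein-coding transcript. A count of 0 of 37 allows a share of up to 8.11%. Among all 19973 protein-coding genes 5.95% had such a summit, a share at which 2.20 of 37 genes would have one. The absence at the pharyngeal genes is thus within what that share allows for a list of this size.

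Relaxed summits were present in the promoter windows of a minority of the genes, at shares close to those of all genes. In the pooled list 12 of 37 genes had one, or 32.4% (95% Wilson interval 19.6 to 48.5%, which covers the counting of genes only), against 29.4% of all genes. In the replicate 1 list 13 genes had one, or 35.1%, against 30.8% of all genes. In the replicate 2 list 11 genes had one, or 29.7%, against 28.1% of all genes. A summit in each of the replicate lists was found for 8 genes, or 21.6%, against 19.8% of all genes, and these were nlp-3, eya-1, myo-2, ceh-22, exp-2, pha-4, tbx-2 and peb-1.

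**Figure D1:**
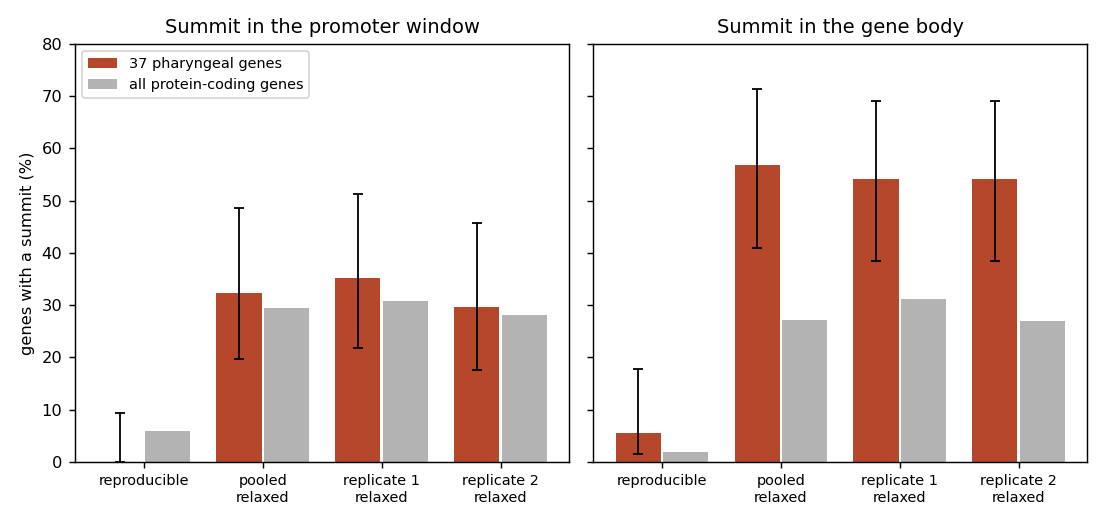
Bars give the percentage of genes with a summit in the promoter window (left) and in the gene body (right) in each peak list, for the 37 pharyngeal genes (red, with 95% Wilson intervals) and for all protein-coding genes (grey). In the promoter window the red and grey bars are close in the relaxed lists, and no pharyngeal gene has a reproducible summit, whereas in the gene body the red bars are the taller ones in every list.

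By role, pooled promoter summits were found at 1 of 12 neuron genes, 3 of 4 regulators of neuron identity, 4 of 10 muscle genes and 4 of 11 development genes. The share over all genes was 29.4%. The neuron genes, which include the serotonin and glutamate genes, were the group with the fewest. Window length was not balanced between the groups, and most regulators had longer windows than most neuron genes. Over all genes the share was 24.1% with a single window of 1201 bp and 44.2% with longer windows. The groups are small, and the difference between them was not tested.

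Among the neuron genes the one with a pooled promoter summit was nlp-3, which encodes a neuropeptide precursor. Its summit lay 422 bp upstream of the start, with a pooled signal of 47.0, and was matched by signals of 16.6 in replicate 1 and 29.7 in replicate 2. Its place, the line of nlp-3 shown above, lies between genes. The core is present there as TAAT and as ATTA.

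The serotonin genes had no promoter summit in any list. These are tph-1, which encodes the tryptophan hydroxylase that commits tryptophan to serotonin, cat-4, which encodes the GTP cyclohydrolase that makes its cofactor, bas-1, which encodes the aromatic amino acid decarboxylase, cat-1, which encodes the vesicular monoamine transporter, and mod-5, which encodes the serotonin reuptake transporter. For cat-1 this depends on the window edge. Replicate 2 alone had a summit of 21.4 in a coding exon 201 bp downstream of a start, just outside the window. cat-4 and bas-1 also had none in the gene body. In the body of tph-1 there was 1 pooled summit, of signal 38.9, in an intron 1534 bp from the nearest start, matched in replicate 2 at 23.8 and not in replicate 1. The highest pooled summit of mod-5, on chromosome I, had a signal of 54.1 and lay in an intron 9655 bp into the gene. It was matched in replicate 1 at 16.4, 95 bp away, and in replicate 2 at 30.9, at the same base. It lay closer to a start of Y54E10BR.2, 5172 bp away, than to that of mod-5.

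Of the neuron genes for glutamate, eat-4, which encodes the vesicular glutamate transporter, and mgl-1, which encodes a metabotropic glutamate receptor, both had no summit of any list in promoter or body. The peptide genes had scattered summits. flp-5, which encodes FMRFamide-like peptides, had none, and flp-18 had no pooled summit but a promoter summit in replicate 2 alone, 974 bp upstream at a signal of 20.6. nlp-13 had a promoter summit in replicate 1 alone, 535 bp upstream at 21.1, and a pooled body summit of 37.5. nlp-18 had 2 pooled body summits, the higher at 37.1.

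Among the regulators of neuron identity, unc-86, ceh-34 and eya-1 had pooled promoter summits and ttx-3 did not. unc-86 encodes a POU homeodomain factor that acts in serotonergic neurons, and its summit lay 4 bp upstream of a start with a pooled signal of 32.5. Replicate 1 had a signal of 27.8 at the same base, and replicate 2 had no promoter summit at all. ceh-34 encodes a sine oculis family homeodomain factor of pharyngeal neurons, and its summit lay 196 bp downstream of the start in an intron, at 45.2 in the pooled list and 27.1 in replicate 2. Replicate 1 had a different summit, 10 bp upstream of the start, at 16.3. Each of these genes was therefore supported at a given place by 1 replicate.

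eya-1, which encodes the Eyes absent partner of such factors, is 10668 bp long and lies on chromosome I. It had 6 pooled body summits, the most of any of the 37 genes, and 3 of these also lay in its promoter windows. The promoter summits had pooled signals of 45.1, 32.5 and 31.4. The first lay 426 bp upstream of a start, inside an intron, and was matched in replicate 2 at 32.6. The last lay 38 bp downstream of a start and was matched in replicate 1 at 26.3, and the middle one was matched in neither replicate. The higher summits of eya-1 were in its introns and had support from both replicates. At position 14226444 the pooled signal was 65.6, with 28.9 in replicate 1 and 38 in replicate 2, and at position 14229398 it was 50.4, with 19.8 in replicate 1 and 31.8 in replicate 2. ttx-3, which encodes a LIM homeodomain factor, had 1 pooled body summit, of signal 33.9.

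Among the muscle genes, ceh-22 stood first. It encodes the NK-2 homeodomain factor that activates the pharyngeal myosin gene myo-2, and its 3 pooled promoter summits spread over the 5 annotated starts of the gene on chromosome V. The highest lay in an intron 68 bp upstream of a start, with a pooled signal of 66.6, rank 2344 of 16046. Replicate 1 had 28.6 there and replicate 2 had 38.5. This was the highest promoter signal of the 37 genes, yet it is below the 86.3 at which the reproducible set begins. The second lay 144 bp downstream of another start in a coding exon, inside the annotated noncoding RNA gene F29F11.19. Its pooled signal was 41.6, with 20.8 in replicate 1 and 17.5 in replicate 2. The replicate 2 match was near the bottom of its list, at rank 15076 of 15188. The third lay 799 bp upstream of the gene at 43.6 and was matched in replicate 2 alone, at 30.9.

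exp-2 encodes the potassium channel that ends the pharyngeal action potential. It has 11 annotated starts, and its promoter window of 6861 bp was the longest of the 37. Its 3 pooled promoter summits had signals of 37.2, 34.8 and 29.8. The first, 622 bp upstream of a start, was matched in replicate 1 at 20.1, 1 bp away, and in replicate 2 at 17.9, 95 bp away. The second lay 5 bp downstream of a start, inside the noncoding RNA gene F12F3.7, and was matched in replicate 2 alone at 29.2, and the third was matched in neither. All of them, and the further body summit of exp-2, lie within ttn-1, the titin gene on the opposite strand, so they cannot be assigned to one of the 2 genes.

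The remaining muscle genes had weak promoter summits or none. avr-15, which encodes a glutamate-gated chloride channel that receives the M3 signal, had a summit of 34.9 in a coding exon 121 bp downstream of a start, matched in replicate 1 alone at 17.5. myo-2 had a summit of 32.4 that lay 54 bp downstream of its start, matched in replicate 1 at 16.4. Replicate 2 had its own summit 184 bp upstream, at 24.7. That summit also lay in the promoter window of cdf-2 and inside the noncoding RNA genes T18D3.13 and T18D3.14. myo-1, the second pharyngeal myosin gene, had a promoter summit in replicate 1 alone at 15.4, and tnt-4, a troponin T gene, in replicate 2 alone at 17.7. The troponin C gene tnc-2 and the troponin I gene tni-4 had no summit in any list. The gene bodies held more: tnt-4 had a pooled summit of 50.7 in a coding exon, with 16.7 in replicate 1 and 31.2 in replicate 2, and eat-2, a nicotinic receptor subunit gene, had one of 48.3, with 21.4 in replicate 1 and 25.2 in replicate 2. For eat-18, which encodes a small protein that works with that receptor, the highest pooled body summit had a signal of 45.1, matched in replicate 1 at 29.2. Its 3 body summits lie in the overlapping gene lev-10 on the same strand and cannot be assigned to one of the 2 genes.

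Among the development genes, tbx-2 and peb-1 had the stronger promoter summits. tbx-2 encodes a T-box factor needed for anterior pharyngeal muscle. Its summit lay 135 bp upstream of its single start, between genes, with a pooled signal of 65.7, rank 2417, and was matched in replicate 1 at 25.8, 91 bp away, and in replicate 2 at 42.2, 6 bp away. peb-1 encodes a DNA-binding protein first found through the myo-2 enhancer. It had a summit of 61.9, rank 2713, at 547 bp upstream of its first start, with 26.9 in replicate 1 and 39.3 in replicate 2. Those replicate summits lay 66 and 87 bp away on opposite sides, 153 bp from each other, so they are not support at one base. A second, of 48.1, lay in an intron 371 bp upstream of a later start and inside the noncoding RNA gene T14F9.14, with 17.0 in replicate 1, 7 bp away, and 29.2 in replicate 2, 11 bp away.

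pha-4, the FoxA gene that sets pharynx identity, had 2 pooled promoter summits at different starts. One, of 49.9, lay 385 bp upstream of the first start inside the noncoding RNA gene F38A6.6, and was matched in replicate 1 at 23.5. The other, of 48.1, lay 262 bp upstream of the third start inside the noncoding RNA gene F38A6.9, and neither replicate had a summit within 100 bp. Farther off, replicate 1 had a summit of 28.2 at 148 bp upstream of the third start. At the first start, replicate 1 had a further summit of 17.9 at 169 bp upstream, and replicate 2 had 24.7 at 508 bp upstream, all of them unmatched. tbx-37 and tbx-38 encode T-box factors that act redundantly in the anterior pharynx lineage. tbx-38 had a pooled summit of 32 at 153 bp upstream, matched in neither replicate, and tbx-37 had a summit in replicate 2 alone, 162 bp upstream at 22.9. These copies share 0.765% of the 25-base words of the tbx-37 promoter window and 1.96% of those of its body, so little sequence is shared at that length. pha-1, placed here among the development genes, ceh-27 and ceh-28, both NK-2 homeodomain genes, and hlh-6, which encodes a gland regulator, had no summit in any list.

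**Figure D2:**
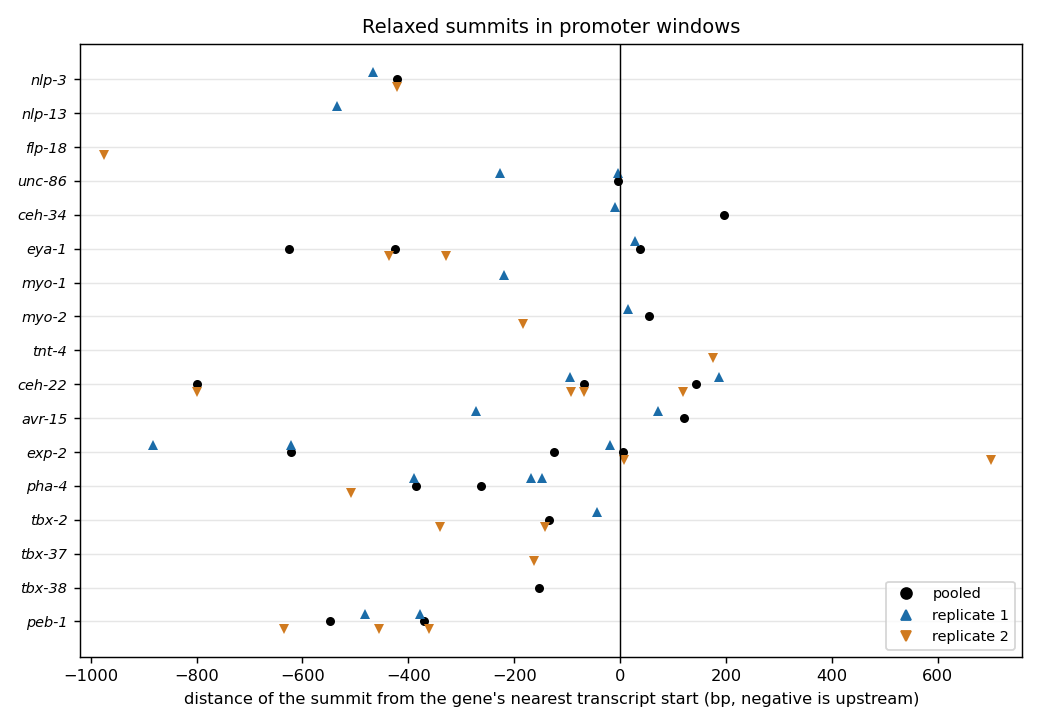
Each marker is a summit in the promoter window of a pharyngeal gene, placed by its distance in bp from the gene's nearest transcript start (negative is upstream), for the pooled list (circles), replicate 1 (upward triangles) and replicate 2 (downward triangles). Different starts of a gene share the axis, so markers that align can belong to different places, as for exp-2 close to the start. By genome position, both replicates have a summit within 50 bp of a pooled one at nlp-3, ceh-22 and the peb-1 summit at 371 bp upstream. Many other summits stand in 1 list.

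In all, the 12 genes held 20 pooled promoter summits, none of them in the reproducible set. Both replicates had a summit within 100 bp of 7 of them, or 35%, against 33.9% of the 5189 relaxed promoter summits of all genes outside the reproducible set. Either replicate matched 16 of the 20, or 80%, against 88.1% of those of all genes. Of the 16, 5 were matched in replicate 1 alone and 4 in replicate 2 alone, which left 4 of the 20 with no match. By gene, nlp-3, ceh-22, exp-2, tbx-2 and peb-1 had a summit matched in both replicates within 100 bp. With matching within 50 bp, 4 summits were left, of nlp-3, ceh-22 and peb-1, and those of exp-2 and tbx-2 and the one of peb-1 at 547 bp upstream were not matched in both. For unc-86, ceh-34, eya-1, myo-2, avr-15 and pha-4 the best match was in 1 replicate, and for tbx-38 there was none.

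The strength of these summits was close to that of other genes. The 20 summits had a median pooled signal of 42.6, against 39.1 for the 5189, and a median −log10 q-value of 0.333, against 0.222. The highest −log10 q-value among the 20 was 1.68. Taking the highest promoter summit of each gene below the reproducible set, the median was 45.2 over the 12 pharyngeal genes and 41.3 over 4680 genes of the whole annotation.

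The 20 summits were also described by place and sequence. Relative to their own gene, 7 lay outside it, 4 in 5′ untranslated exons, 2 in coding exons and 7 in introns, and 14 of the 20 lay upstream of the nearest start of their own gene. None lay in the promoter window of another protein-coding gene, and for all 20 the nearest start was that of the gene itself. However, 3 of the 20, those of exp-2, lay inside ttn-1 and cannot be assigned to one gene. Inside an annotated noncoding RNA gene, with piRNA genes and pseudogenes not counted, were 5 of the 20, or 25%, against 5.05% of the 5189. These 5 are summits of ceh-22, exp-2, pha-4 and peb-1 named above, and whether the noncoding genes play a part in the summits was not tested.

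The homeodomain core TAAT, searched on both strands within 50 bp of the summit, was present at 9 of the 20 summits, or 45%, against 52.8% of the 5189. The longer words that contain it were rare. TAATTA, which reads the same on both strands, was present at 1 summit, or 5.00%, against 4.99%, and TAATGA at 1 summit, or 5.00%, against 5.55%. The windows had a median of 43.6% G and C, against 42.6% for the 5189. A 4-base word occurs by its letters alone in many windows, and these shares describe the windows only.

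**Figure D3:**
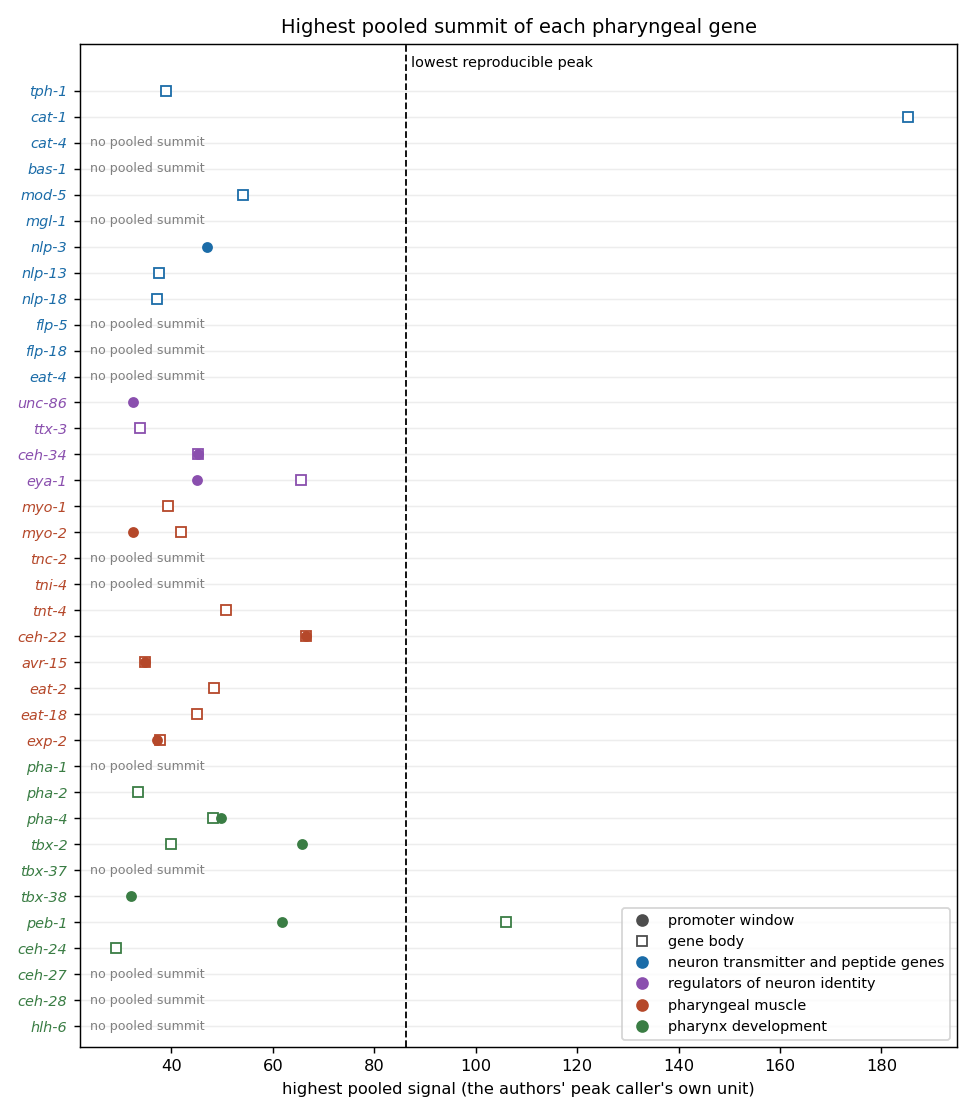
Each row is a pharyngeal gene, coloured by role, with the signal of its highest pooled summit in the promoter window (filled circle) and in the gene body (open square), and the dashed line marks the lowest reproducible peak. The body summits of cat-1 at 185.2 and peb-1 at 106.0 stand right of the line, and all promoter summits lie left of it, up to 66.6 at ceh-22.

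In the gene bodies, 2 of the 37 genes had a reproducible summit, cat-1 and peb-1, or 5.41% (Wilson interval 1.5 to 17.7%), against 1.81% of all genes. In the relaxed lists 21 genes had a body summit in the pooled list, or 56.8% (40.9 to 71.3%), against 27.2% of all genes. In the replicate 1 list it was 20 genes, or 54.1%, against 31.1% of all genes, and in the replicate 2 list 20 genes, or 54.1%, against 27%.

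The pharyngeal genes are longer than other genes, with a median body of 3852 bp, against 2027 bp over all genes, and longer genes hold more summits. Among genes under 2 kb, 1 of 7 pharyngeal genes, or 14.3%, had a pooled body summit, against 13.3% of all such genes. Between 2 and 5 kb it was 9 of 17, or 52.9%, against 30.0%. At 5 kb or longer it was 11 of 13, or 84.6%, against 63.3%. Per kb of gene body there were 0.242 pooled summits at the pharyngeal genes, against 0.145 over all genes. The single-replicate lists varied around these shares. In the replicate 1 list the classes, from short to long, gave 14.3% against 16.5%, 41.2% against 34.1%, and 92.3% against 69.0%. In the replicate 2 list they gave 0 of 7 genes against 13.4%, 47.1% against 29.7%, and 92.3% against 62.4%. For genes of 5 kb or longer the share was the higher at the pharyngeal genes in every relaxed list, while between 2 and 5 kb the gap was small in replicate 1, and the differences were not tested.

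The same comparison by window length was flat. For genes whose starts give a single window of 1201 bp, 5 of 19 pharyngeal genes, or 26.3%, had a pooled promoter summit, against 24.1% of all such genes. For genes with longer windows it was 7 of 18, or 38.9%, against 44.2%. Per kb of window there were 0.288 pooled promoter summits at the pharyngeal genes, against 0.253 over all genes.

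The reproducible summit of cat-1 was the strongest peak at any of the 37 genes. It lay at position 5708006 of chromosome X, in an intron 2619 bp from the nearest start of the gene, with a pooled signal of 185.2, rank 351. Replicate 1 had 92.2, rank 345, and replicate 2 had 86.7, rank 441, so the peak stood high in both. The summit lay 22 bp from the tRNA gene WBGene00022974, which occupies positions 5708028 to 5708109 on the strand opposite to cat-1, and the start of that gene is in capitals in the sequence above. A second pooled summit of cat-1, of 51.5, lay on the other side, 96 bp from the same tRNA gene, with 21.8 in replicate 1 and 27.6 in replicate 2.

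cat-1 holds another tRNA gene, WBGene00022975, at positions 5709375 to 5709456, whose 82 bases are identical to those of the first. The nearest pooled summit to it was 1170 bp away, and it was the nearest in replicate 1 too, while in replicate 2 the nearest was 968 bp away. Of 612 tRNA genes, 7 carry this same sequence. How the authors treated reads that fit several places is not given in the sources used here, so the signal within the copies themselves is uncertain, while the summits lie in the flanks.

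The reproducible summit of peb-1 lay at position 2212354 of chromosome X, in an intron 1303 bp from the nearest start, with a pooled signal of 106.0, rank 1003. Replicate 1 had 52.2, rank 1049, and replicate 2 had 59.3, rank 909. The summit lay inside the noncoding RNA gene T14F9.11, at positions 2212242 to 2212532. peb-1 had 4 pooled body summits, 3 of them inside noncoding RNA genes. The body of peb-1 holds many annotated noncoding RNA genes, most of them without a pooled summit. How often a summit would fall inside one by the space they take up was not tested. Of the 44 pooled body summits of the pharyngeal genes, 6 lay inside an annotated noncoding RNA gene, these 3 among them. The matching share over all genes was not counted. Both reproducible body summits thus lay near a tRNA gene or in a noncoding RNA gene, 100% of 2, against 34.3% of the 411 reproducible body summits of all genes that lay within 300 bp of a tRNA, snoRNA or snRNA gene or inside a noncoding RNA gene. Whether tRNA or noncoding genes account for these peaks was not tested.

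**Figure D4:**
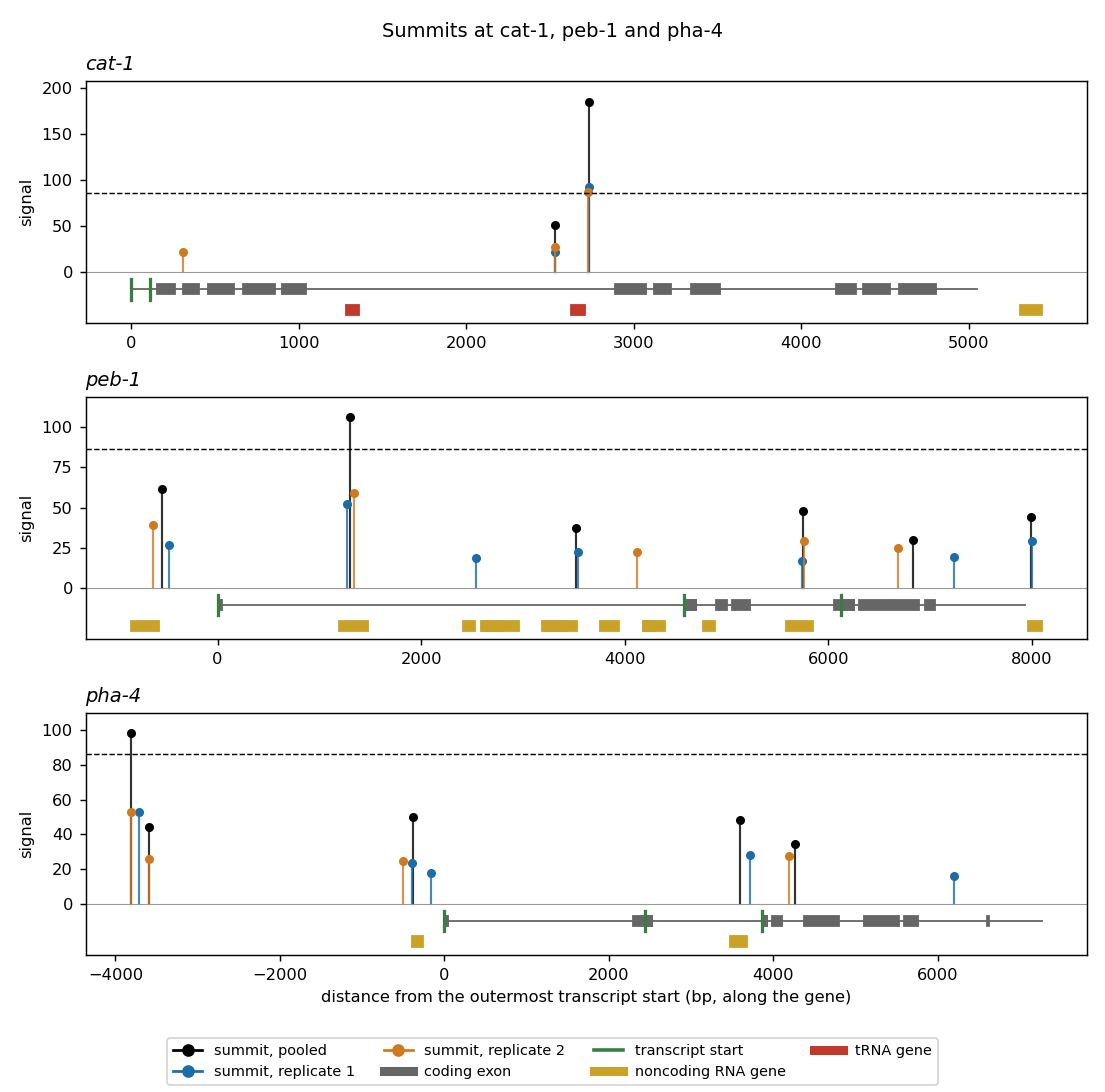
Each panel shows summits along cat-1, peb-1 and pha-4 by distance in bp from the outermost transcript start, with the signal of pooled (black), replicate 1 (blue) and replicate 2 (orange) summits as height, and coding exons, starts, tRNA genes and noncoding RNA genes below. The tallest pooled summits, 185.2 at cat-1, 106.0 at peb-1 and 98.1 upstream of pha-4, lie above the dashed line of the lowest reproducible peak and away from the starts.

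pha-4 had a reproducible summit outside its promoter windows, and this one was singled out after its values were seen. It lay at position 20749242 of chromosome V, 3810 bp upstream of the first start, with a pooled signal of 98.1, rank 1142. The replicate 2 summit, at the same base, had 53.1, rank 1109. The replicate 1 summit of 52.7, rank 1028, lay at -3710 bp from the first start (negative is upstream), at the limit of the matching distance. A further pooled summit, of 44.4, lay at -3595 bp, where replicate 2 had 26.0, so the replicate 1 summit stood between the pooled ones. The nearest protein-coding start was that of pha-4, and the summit lay in no promoter window and in no noncoding RNA gene. ceh-24, an NK-2 homeodomain gene of pharyngeal muscle, had a reproducible summit 4586 bp upstream, of 119.5, but its nearest start was that of swan-1.

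At short range a smaller share of the pharyngeal genes than of all genes had a reproducible summit nearby, on few genes and with no test, and at long range the shares were close. A reproducible summit lay within 2000 bp of a start for 1 of the 37 genes, or 2.70%, against 8.84% of all genes, and within 5000 bp for 4, or 10.8%, against 15.4%. Within 10000 bp it was 6 genes, or 16.2%, against 25.2%, and within 20000 bp 17 genes, or 45.9%, against 40.8%. The median distance was 21897 bp for the pharyngeal genes and 27613 bp for all genes.

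Of the 44 pooled body summits, 26 lay in introns, 10 in coding exons, 4 in 5′ and 4 in 3′ untranslated exons. The 44 include the promoter summits that lay inside their own gene, 7 in introns, 2 in coding exons and 4 in 5′ untranslated exons. The shares of promoter and body summits are therefore not separate evidence. Both replicates matched 14 of them, or 31.8%, against 28.5% of the 9051 pooled body summits of all genes. At least 1 replicate matched 37, or 84.1%, against 86.8%. TAAT was present within 50 bp at 26 of the 44, or 59.1% (Wilson interval 44.4 to 72.3%), against 50.4% of the 9051. Besides the summits already given, tbx-2 had one of 40.0 in an intron, with 17.6 in replicate 1 and 22.2 in replicate 2. The others were at or below 41.8, the value of a coding-exon summit of myo-2, and include 33.4 at pha-2, a homeobox gene of the pharynx, and 29.1 at ceh-24.

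Of the 37 genes, 12 thus had a pooled promoter summit, 5 had a promoter summit in a replicate list alone, 9 had summits in the gene body alone, and 11 had no summit in any list. The last class holds cat-4, bas-1, mgl-1, flp-5, eat-4, tnc-2, tni-4, pha-1, ceh-27, ceh-28 and hlh-6. A further list of 36 other genes, chosen as linked to the pharynx, was counted the same way. It holds other regulators, pumping and channel genes, receptors and gland genes. Its regulators include skn-1, pop-1, glp-1, pal-1, med-1 and med-2, so the list is not confined to genes particular to the pharynx. A reproducible promoter summit was found at 1 of the 36, or 2.78%, against 5.95% of all genes, and a pooled one at 14, or 38.9%, against 29.4%. In the gene body none had a reproducible summit, against 1.81% of all genes, and 17, or 47.2%, had a pooled one, against 27.2%. These shares were not split by gene or window length, with which the shares over all genes rise. The one reproducible promoter summit was at eat-6, a sodium pump gene, 730 bp upstream of the start, with a pooled signal of 107.5, and 66.9 in replicate 1 and 41.6 in replicate 2.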

How the data were processed

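ChIP-seq of CEH-2-GFP from 2 replicates of 1 group was used as deposited peak lists on ce11 (narrowPeak format). Per the file headers, the authors called relaxed lists on each replicate and on the pooled replicates, each with a control, and derived the reproducible (optimal) set by IDR. Not given in the sources used here are the aligner, the peak caller and the IDR threshold. The deposited signal value, column 7, is on the caller's own scale and was used only to describe and rank peaks within a list. The deposited −log10 q-value, column 9, was used only as a description. Depth is unknown, and the lists on ce10 were not used.

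A summit was taken as column 2 plus column 10, counted from 1. Genes, transcript starts and noncoding RNA genes were those of Ensembl (release 115, WBcel235, which is ce11), and bases those of the RefSeq genome of this assembly. Many worm transcript starts are annotated at trans-splice sites, so the true start can lie upstream. A gene was counted when a summit lay within 1000 bp before or 200 bp after a start, or in its body. A summit in both places was counted in both. Summits were matched between lists within 100 bp. Python 3.11.15, numpy 2.4.6, scipy 1.17.1 and matplotlib 3.10.9 were used, and the counting was checked on simulated peaks. Shares have 95% Wilson intervals for counting error only, a count of 0 was limited by 3 counts, and no test was made, since there was 1 group. All 37 genes are accounted for, and genes named with values are those with summits by this rule. The genes and lists were chosen with earlier results of these data known. Alternatives changed the window, starts, list strength and matching distance.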

Additional observations from a re-analysis of the deposited data

How the results depend on the processing

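No paired analysis was possible because the series holds 1 group. The count of genes with a reproducible promoter summit stayed at 0 with windows of 500 or 2000 bp, the outermost start alone, the stronger reproducible peaks and overlap of the whole peak. With the strongest 4359 pooled peaks, 3 times as many as the reproducible set, it was 3 (ceh-22, tbx-2 and peb-1, against 13.1% of all genes). With above-median pooled peaks 7 of the 37 genes had a pooled promoter summit, against 19.3% of all genes. A pooled body summit was then found at 13 of the 37, against 13.7% of all genes. The genes with a reproducible body summit were 1 with above-median reproducible peaks (cat-1; 0.826% of all genes) and 1 without summits near tRNA, snoRNA or snRNA genes (peb-1; 1.31%), the second chosen after seeing the data, as was adding starts of noncoding transcripts, which changed no count. Matching within 50 bp left 4 promoter summits found in both replicates (21.7% for all genes), with exp-2 and tbx-2 no longer among their genes. A window of 2000 bp gave 17 of the 37 genes with a pooled promoter summit, against 38.9% of all genes. No peak list was called anew without a replicate, so the relaxed list of the other replicate stood in. Its strongest peaks, as many as the reproducible set holds, gave 0 genes by promoter and 2 by body for either replicate. The shares of all genes were then close to those for the reproducible set. The whole list gave 11 genes by promoter for replicate 2 and 13 for replicate 1, and 20 by body for each. These whole-list counts are the single-replicate counts given above, with their shares of all genes, and are not a separate check. Depth is unknown, and weak summits rest on lists that include background.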
